A study of Mus musculus with 8 samples.

Results

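The genes described here are the adherens junction and nectin genes of the mouse: Cdh1 and Cdh3 (E- and P-cadherin), Ctnna1, Ctnnb1 and Ctnnd1 (alpha-, beta- and p120-catenin), Nectin1 and Nectin4, and Afdn (afadin). They were taken by gene symbol from a table of 23355 genes. All 8 had a row, and all 8 passed the filter on low counts that left 14533 genes to test. RNA was sequenced from sorted epithelial cells of the cheek lining of wild type C57BL/6 mice kept free of specific pathogens. There were 4 libraries from animals of 1 week (1 week 1 to 1 week 4) and 4 from animals of 8 weeks (8 week 1 to 8 week 4), and no animal was treated. Every library went through the same steps, namely dispase II to free the epithelium, a flow cytometry sort and a stranded total RNA library for low input. Neither the sorting gate nor the animals' sex is labelled, and a library holds all layers of the epithelium that passed the sort.

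Adherens junctions join the actin belts of neighbouring epithelial cells. The outer parts of classical cadherins bind the same cadherin on the next cell, their tails bind beta-catenin and p120-catenin, and alpha-catenin links beta-catenin to actin. Nectins are immunoglobulin-like adhesion receptors that meet on neighbouring cells and are tied to actin by afadin, and p120-catenin keeps cadherins at the cell surface. In stratified epithelium P-cadherin is known from the basal layer, E-cadherin from all living layers, and beta-catenin also carries Wnt signals to the nucleus.

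The libraries held 11747783 to 16807773 counts. Their expression depended on transcript length to different degrees. Slopes were taken on log2 CPM relative to the mean of all libraries, per doubling of length. They were -0.17, -0.04, -0.07 and -0.07 at 1 week and 0.19, -0.02, 0.15 and 0.03 at 8 weeks. The sign of a slope thus places a library against that mean only. Every 8 week slope was above every 1 week slope, and 1 week 1, 8 week 1 and 8 week 3 lay farthest out. Age and length dependence thus went together, and fold changes with or without a correction cannot tell them apart. Small structural RNA took 5.92% and 9.14% of the counts of 1 week 1 and 1 week 4, against 1.01% to 2.82% in the other libraries. Each result on a member is therefore given also with a correction for transcript length and GC content. All 10 markers of stratified epithelium were present and none was called between the ages, with summed levels of 38525 to 44852 CPM (counts of a gene relative to the TMM-scaled library size) at 1 week and 29979 to 40634 CPM at 8 weeks. Summed levels of the markers analysed were 3.82 to 7.69 CPM for endothelium, 0.374 to 1.69 CPM for leukocytes and 1.42 to 3.83 CPM for melanocytes over the libraries of both ages. Fibroblast markers summed to 923 to 1161 CPM at 1 week and 400 to 776 CPM at 8 weeks, nearly all of it from Dcn, while the other 5 fibroblast markers analysed stood at 1.13 CPM or less in every library, and erythroid markers to 1.78 to 6.35 and 13.3 to 33.0 CPM at the 2 ages. The part of these markers in the results below was not tested.

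A single member was called between the ages. Ctnnd1, which encodes p120-catenin, was higher at 8 weeks, 1 of 8 members against 3.33% of all genes called higher and 6.55% called in either direction. The other 7 members had log2 fold changes (8 weeks over 1 week) between -0.15 and 0.28 and were not called, 6 of them with a positive estimate. The median over the 8 members was 0.25, against -0.00 over all genes tested. With the correction for length and GC content the medians were 0.05 and 0.02, and 0 members were called by edgeR (1.20% of all genes were called higher, 1.44% lower and 2.65% in either direction), 2 of them having an unadjusted p under 0.05, as had 22.0% of all genes. Without the correction an unadjusted p under 0.05 was found for 4 of the 8 members and for 27.8% of all genes. The Wald test of DESeq2 without the correction called Ctnnd1 and Cdh1 (14.5% of the genes it tested were called), and limma-voom called 1 member and 11.3% of the genes. Because these are bulk samples, fewer cells of a type and less RNA per cell cannot be told apart.

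**Figure D1:**
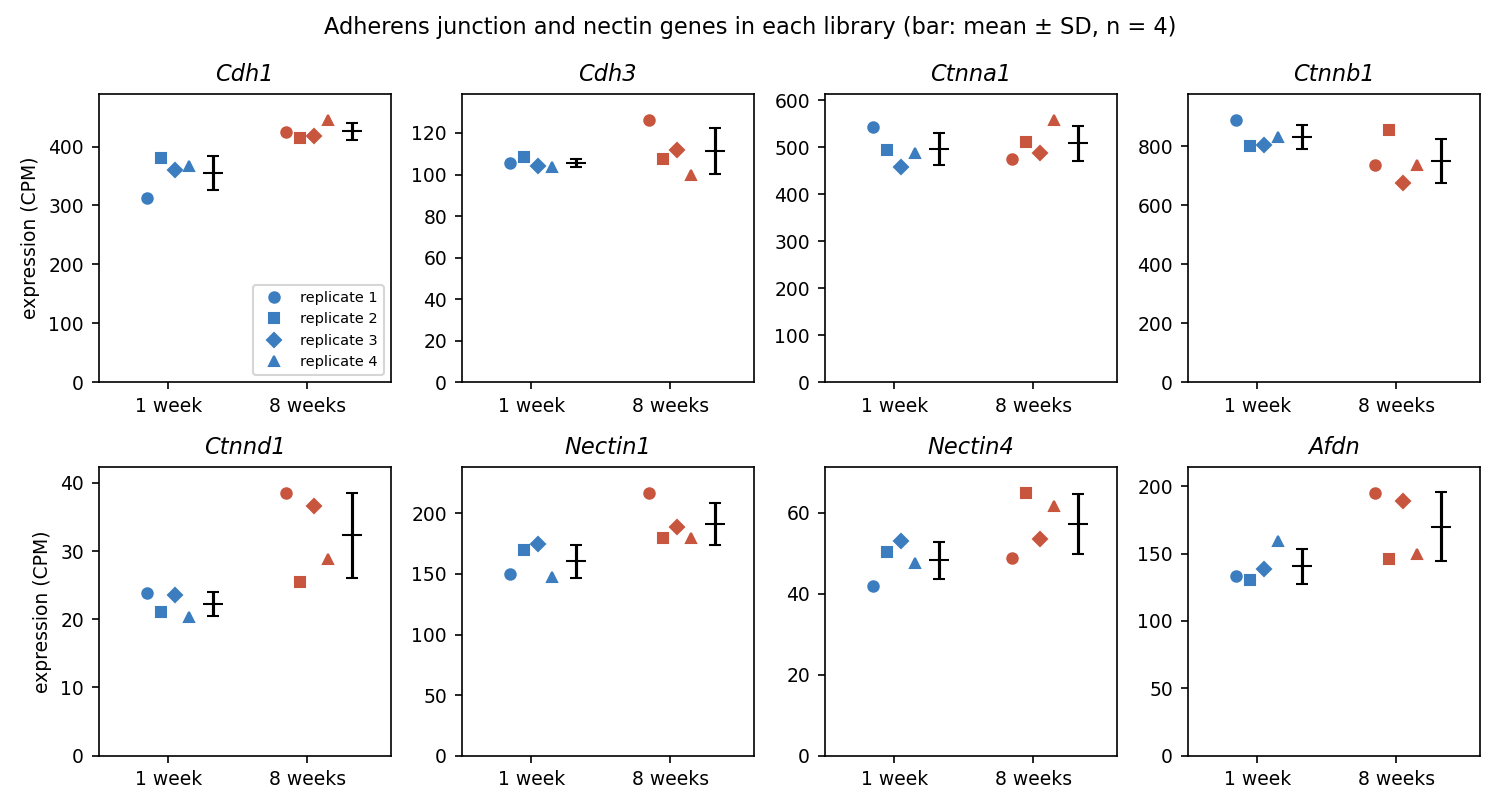
Expression of the 8 adherens junction and nectin genes in each library, as CPM on the vertical axis of each panel, with 1 point per library, 1 week on the left and 8 weeks on the right, and the group mean with its SD. The 8 week points of Cdh1, Ctnnd1 and Nectin1 lie above every 1 week point, while the groups overlap in the other 5 members.

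Levels per length, in CPM per kilobase of the longest transcript (mean ± SD, n = 4), were ordered in the same way at both ages. Ctnnb1 was highest among the members, at 229 ± 11.4 at 1 week and 207 ± 20.7 at 8 weeks, and its range met that of Jup, which encodes plakoglobin, the catenin relative of desmosomes and adherens junctions (231 ± 13.1 and 220.5 ± 19.1). Ctnna1 followed at 133 ± 9.29 and 136 ± 9.93, and Cdh1 at 80.1 ± 6.54 and 96.1 ± 3.11. Nectin1 (28.4 ± 2.42 and 33.8 ± 3.10), Cdh3 (24.0 ± 0.46 and 25.4 ± 2.55), Afdn (18.2 ± 1.69 and 22.0 ± 3.33) and Nectin4 (13.3 ± 1.29 and 15.7 ± 2.02) formed a lower group. Ctnnd1 was the lowest of the 8 at 3.49 ± 0.27 and 5.08 ± 0.98. Neighbouring members kept separate ranges at both ages, except that the ranges of Cdh3 and Afdn met at 8 weeks.

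The level of Ctnnd1 (ENSMUSG00000034101, chromosome 2, 84600071 to 84650765, minus strand, GRCm38) is tied to how its exons are annotated. The release of the annotation behind the counts is not given in the sources used here. In GENCODE M21 the read-through gene Gm28635 (84601439 to 84678041, same strand) carries exons of Ctnnd1 and of its neighbour Tmx2, and it shares 4482 of the 7319 exon bases of Ctnnd1 (61.2%) and 2814 of its 2904 coding bases (96.9%). Gm28635 is not analysed here. Reads on shared exons can be left uncounted when a counter sees more than 1 gene, and the counting mode of HTSeq is not given in the sources used here. The count of Ctnnd1, 229 to 706 reads per library, may thus rest on part of the gene, and dividing by the 2837 unshared bases alone gave 7.83 ± 0.61 CPM per kilobase at 1 week and 11.4 ± 2.19 at 8 weeks (SD, n = 4). With that divisor Ctnnd1 also stayed below the mean of Nectin4. Which bases supplied the reads was not tested.

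**Figure D2:**
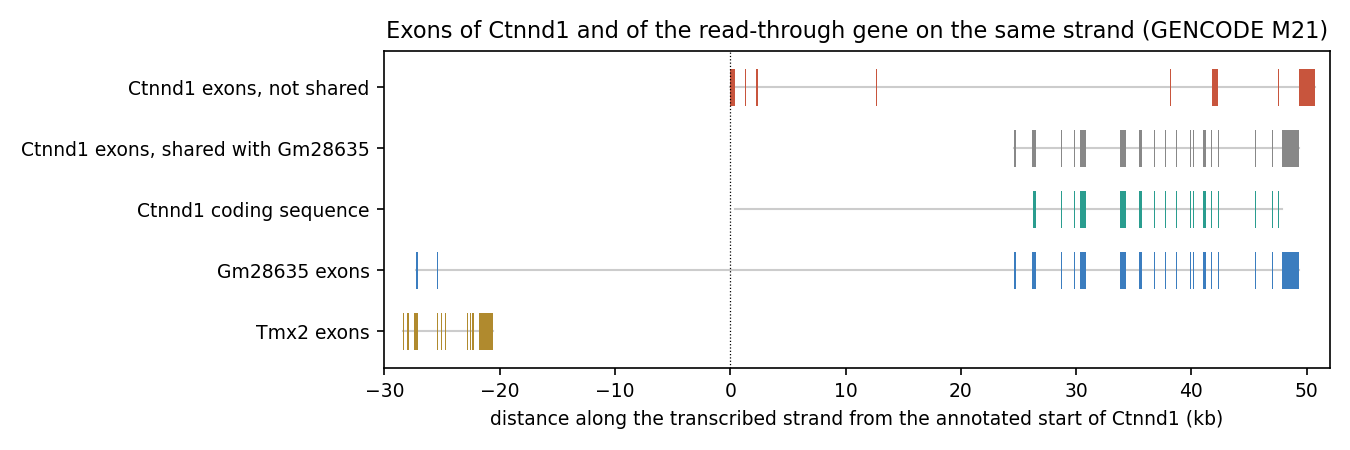
Map of the exons of Ctnnd1, of Gm28635 and of Tmx2 by distance in kilobases along the transcribed strand from the annotated start of Ctnnd1, with exon widths to scale. Exon parts shared with Gm28635 (4482 bases) and parts of Ctnnd1 alone (2837 bases) are separate tracks, and nearly all of the coding track falls on shared exons.

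RefSeq places starts of Ctnnd1 both inside and outside the gene coordinates given with the counts. The sequences upstream of these starts are shown because Ctnnd1 is the called member and 1 of its starts lies 8212 bases upstream of the start in those coordinates. Each is the 250 bases before a RefSeq start (GRCm38.p6, minus strand, 5′ to 3′), with CCAAT or its reverse complement ATTGG in capitals.
Upstream start, chr2:84658978-84659227: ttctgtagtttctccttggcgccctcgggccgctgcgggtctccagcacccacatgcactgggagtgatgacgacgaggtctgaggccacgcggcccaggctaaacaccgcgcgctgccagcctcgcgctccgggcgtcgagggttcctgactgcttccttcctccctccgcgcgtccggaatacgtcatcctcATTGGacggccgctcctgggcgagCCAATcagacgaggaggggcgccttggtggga
Start near the annotated gene start, chr2:84650741-84650990: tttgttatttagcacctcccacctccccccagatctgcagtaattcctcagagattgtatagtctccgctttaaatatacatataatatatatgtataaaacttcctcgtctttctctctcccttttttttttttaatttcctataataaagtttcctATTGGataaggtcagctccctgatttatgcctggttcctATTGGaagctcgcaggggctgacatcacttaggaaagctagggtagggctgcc
In the first, ATTGG stood at position -56 and CCAAT at -32 from the start, and in the second ATTGG stood at -92 and -53 and TATAAA, the TATA box, at -156. The 300-base windows around these starts (250 before and 50 after) were 67.7% and 42.7% G and C. CCAAT on either strand occurred in 37.4% of 32851 such windows of the genome and TATAAA in 13.6%. Neither window held CAGGTG, the E-box bound by Snail and Zeb factors, which occurred in 20.2% of windows, nor GGGCGG, the Sp1 box (35.7%), nor AACCGGTT (0.146%), a Grainyhead-like site. Windows of 4 of the 8 members (Nectin4, Ctnnd1, Ctnnb1 and Afdn) were searched for 5 motifs on both strands. The other members were not searched. A match describes the letters only.

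Of the cadherins, Cdh1 had the larger difference between the ages. Cdh1 (ENSMUSG00000000303, chromosome 8, 106603351 to 106670246) stood at 313, 380.0, 359 and 367 CPM at 1 week and at 424, 415, 418 and 446 CPM at 8 weeks, so that every 8 week library was above every 1 week library. The means were 355 ± 29.0 and 426 ± 13.8 CPM (SD, n = 4). Its estimate, as log2 fold change, was 0.26 (SE 0.10, 95% interval 0.05 to 0.47) and was not called (adjusted p = 0.106, edgeR). In the authors' deposited table it was 0.27 with an adjusted p of 0.0490, where 3.33% of 23261 genes were called higher and 6.61% in either direction. After correction it was 0.19 (adjusted p = 0.172).

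Cdh3 (ENSMUSG00000061048, chromosome 8, 106510891 to 106557297) is the neighbour of Cdh1 on that chromosome. It stood at 105, 108, 104 and 104 CPM at 1 week and at 126, 107, 112 and 99.8 CPM at 8 weeks, with means of 105 ± 2.01 and 111 ± 11.2 CPM (SD, n = 4). The 1 week libraries lay close together, and the 8 week libraries spread on either side of them. The log2 fold change was 0.08 (95% interval -0.12 to 0.28, adjusted p = 0.610), and -0.00097 after correction. It was 0.014 without 8 week 1 and 0.13 without 8 week 4.

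Among the catenins, Ctnnd1 was called while Ctnna1 and Ctnnb1 were not, and no test compared Ctnnd1 with them directly. Ctnnd1 stood at 23.8, 21.1, 23.6 and 20.4 CPM at 1 week and at 38.5, 25.4, 36.6 and 28.8 CPM at 8 weeks. The groups did not overlap, and the highest 8 week values were those of 8 week 1 and 8 week 3, the libraries with the highest length slopes. The means were 22.2 ± 1.73 and 32.3 ± 6.22 CPM (SD, n = 4), a log2 fold change of 0.54 (SE 0.14, 95% interval 0.24 to 0.84, adjusted p = 0.0394), or 1.46-fold. In the authors' deposited table the adjusted p was 0.0138. After the correction, which took the full 6362 bp of its longest transcript, the log2 fold change was 0.36 (adjusted p = 0.115). Without any 1 of the libraries other than 8 week 2 the call was lost (highest adjusted p = 0.129, without 8 week 1), with log2 fold changes of 0.45 to 0.60 in these 7 fits, and without both 8 week 1 and 8 week 3 it was 0.29 (adjusted p = 0.459). Tmx2, whose exons Gm28635 also carries, stood at 27.0 ± 6.32 and 24.3 ± 2.94 CPM (SD, n = 4; log2 fold change -0.15, adjusted p = 0.564).

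Ctnna1 (ENSMUSG00000037815, chromosome 18, 35118859 to 35254779) stood at 543, 495, 459 and 488 CPM at 1 week and at 475, 512, 487 and 559 CPM at 8 weeks. The groups overlapped throughout. Means were 496 ± 34.7 and 508 ± 37.1 CPM (SD, n = 4), with a log2 fold change of 0.03 (95% interval -0.19 to 0.25, adjusted p = 0.854). After correction the log2 fold change was also 0.03 (adjusted p = 0.879). Its sign was negative without 1 week 3 and without 8 week 4, so no direction can be given.

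Ctnnb1 (ENSMUSG00000006932, chromosome 9, 120929216 to 120960507), the beta-catenin gene, had the single negative estimate among the members. It stood at 889, 800.1, 803 and 829 CPM at 1 week and at 736, 854, 675 and 737 CPM at 8 weeks. All but 1 of the 8 week libraries lay below every 1 week library, the exception being 8 week 2. The means were 830.4 ± 41.4 and 750.5 ± 74.9 CPM (SD, n = 4), with a log2 fold change of -0.15 (SE 0.11, 95% interval -0.38 to 0.09, adjusted p = 0.402), and -0.15 after correction. Of its 5192 exon bases 759 (14.6%) overlap Ulk4 on the opposite strand, and the strand setting of the counting is not given in the sources used here.

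The nectins and afadin had similar positive estimates, none called. Nectin1 (ENSMUSG00000032012, chromosome 9, 43743984 to 43832658), a receptor for neighbouring nectins, stood at 150.1, 169.7, 175 and 148 CPM at 1 week and at 217, 179.6, 189 and 179.7 CPM at 8 weeks. Every 8 week library was above every 1 week library, and 8 week 1 was the highest. The means were 161 ± 13.7 and 191 ± 17.5 CPM (SD, n = 4), with a log2 fold change of 0.25 (SE 0.10, 95% interval 0.03 to 0.47, adjusted p = 0.128), and 0.05 after correction (adjusted p = 0.743).

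Nectin4 (ENSMUSG00000006411, chromosome 1, 171370099 to 171388598), a nectin that binds Nectin1 in human cells, stood at 42.0, 50.2, 52.9 and 47.6 CPM at 1 week and at 48.8, 64.8, 53.5 and 61.7 CPM at 8 weeks. The groups overlapped through 8 week 1. Means were 48.2 ± 4.69 and 57.2 ± 7.34 CPM (SD, n = 4), with a log2 fold change of 0.25 (SE 0.12, 95% interval -0.0030 to 0.49, adjusted p = 0.185). After correction the log2 fold change was 0.22 (adjusted p = 0.233).

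Afdn (ENSMUSG00000068036, chromosome 17, 13760539 to 13906150) stood at 134, 130.4, 139 and 159 CPM at 1 week and at 195, 146, 189 and 149.8 CPM at 8 weeks. As for Ctnnd1, 8 week 1 and 8 week 3 were the highest, and the other 8 week libraries lay within the 1 week range. Means were 140.5 ± 13.0 and 169.9 ± 25.8 CPM (SD, n = 4), with a log2 fold change of 0.28 (SE 0.12, 95% interval 0.02 to 0.53, adjusted p = 0.15), and 0.04 after correction (adjusted p = 0.819).

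**Figure D3:**
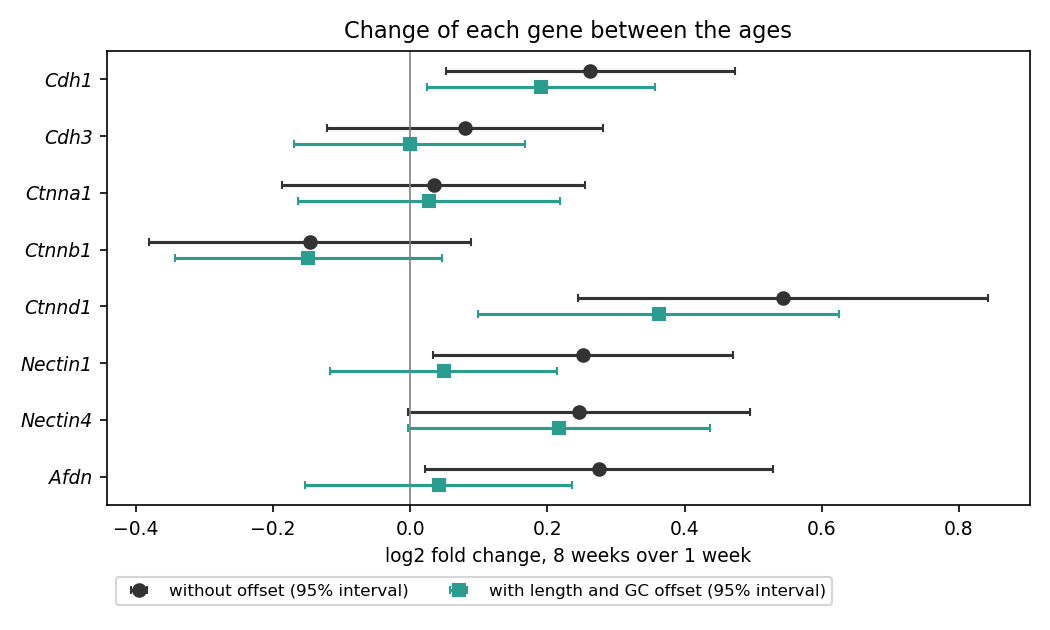
Log2 fold change (8 weeks over 1 week) of the 8 members with 95% intervals, without and with the length and GC correction. The intervals of Cdh1, Ctnnd1, Nectin1 and Afdn lie above 0 before correction, and those of Cdh1 and Ctnnd1 after it.

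Where members stood relative to genes of like transcript length differed between them. Ctnnd1, Nectin1 and Afdn belong to the longest of 5 classes of transcript length of protein-coding genes (5406 bp or more), in which the median log2 fold change was 0.21, 77.9% of estimates were positive, 12.3% of genes were called higher, and 21.5% had all 8 week libraries above all 1 week libraries. Cdh1 and Cdh3 belong to the next class (3984 to 5405 bp; median 0.06, 3.10% called higher, 10.4% without overlap). Ctnna1, Ctnnb1 and Nectin4 belong to the middle class (median -0.02). For Ctnnd1 both the class and the correction rest on its longest transcript of 6362 bp. Its 2837 unshared bases alone would fall in the class of 2046 to 2997 bp (median -0.11, 0.693% called higher). Which length applies to its counts was not tested. Over all genes 7.69% had every 8 week library above every 1 week library, which held for 3 of the 8 members, Cdh1, Ctnnd1 and Nectin1.

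**Figure D4:**
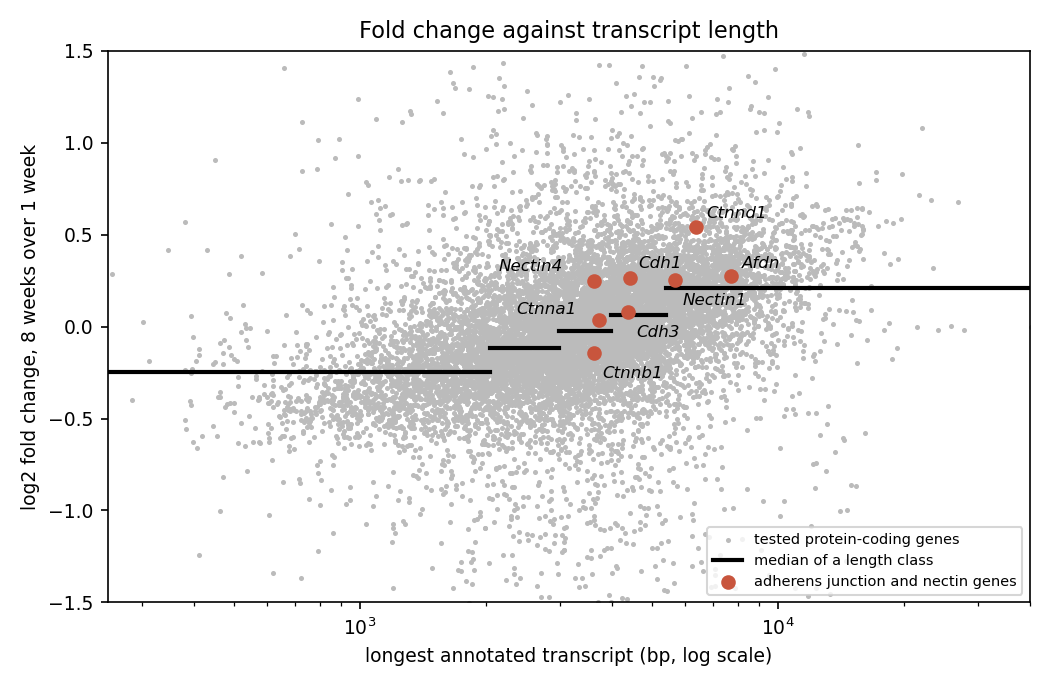
Log2 fold change (8 weeks over 1 week) against longest transcript length on a log axis, with the members named and the medians of the 5 length classes as bars; genes beyond the axes are not drawn. Class medians go from -0.25 in the shortest to 0.21 in the longest, and the 3 members of the longest class lie at 0.25 to 0.54.

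Ratios of counts within a library do not depend on library scaling. For 6 ratios the ages were compared by an exact two-sided permutation test, whose p cannot go below 0.0286 with 4 libraries a side. Ctnnb1 over Cdh1 was 2.84, 2.11, 2.23 and 2.26 at 1 week and 1.73, 2.06, 1.61 and 1.65 at 8 weeks, with means of 2.36 ± 0.326 and 1.77 ± 0.202 (SD, n = 4). The groups did not overlap, and the log2 difference was -0.42 (exact permutation test, p = 0.0286, adjusted over the 6 ratios 0.0857). Ctnna1 over Cdh1 was 1.73, 1.30, 1.28 and 1.33 at 1 week and 1.12, 1.23, 1.17 and 1.25 at 8 weeks. These groups did not overlap either, with 1 week 1 far above the rest, and the log2 difference was -0.23 (exact permutation test, p = 0.0286, adjusted 0.0857). Without 1 week 1 it was -0.13. Neither passed the adjustment, and with the length and GC correction they were -0.34 and -0.16 (both adjusted p = 0.171, exact permutation test).

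The other 4 ratios overlapped between the ages. Cdh3 over Cdh1 had means of 0.299 ± 0.0256 and 0.262 ± 0.0303 (SD, n = 4; log2 difference -0.19, exact permutation test, adjusted p = 0.229). After correction its log2 difference was -0.20 (exact permutation test, adjusted p = 0.229). Ctnnd1 over Cdh1 had a log2 difference of 0.26 (exact permutation test, adjusted p = 0.343), and 0.16 after correction (exact permutation test, adjusted p = 0.411). Nectin4 over Nectin1 and Afdn over Nectin1 had means of 0.30 ± 0.0178 and 0.303 ± 0.0616, and of 0.882 ± 0.141 and 0.887 ± 0.0858 (SD, n = 4). Their log2 differences were -0.01 and 0.02 (exact permutation test, adjusted p = 0.971 for both), and 0.16 and -0.01 after correction, so that the sign flipped in both.

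**Figure D5:**
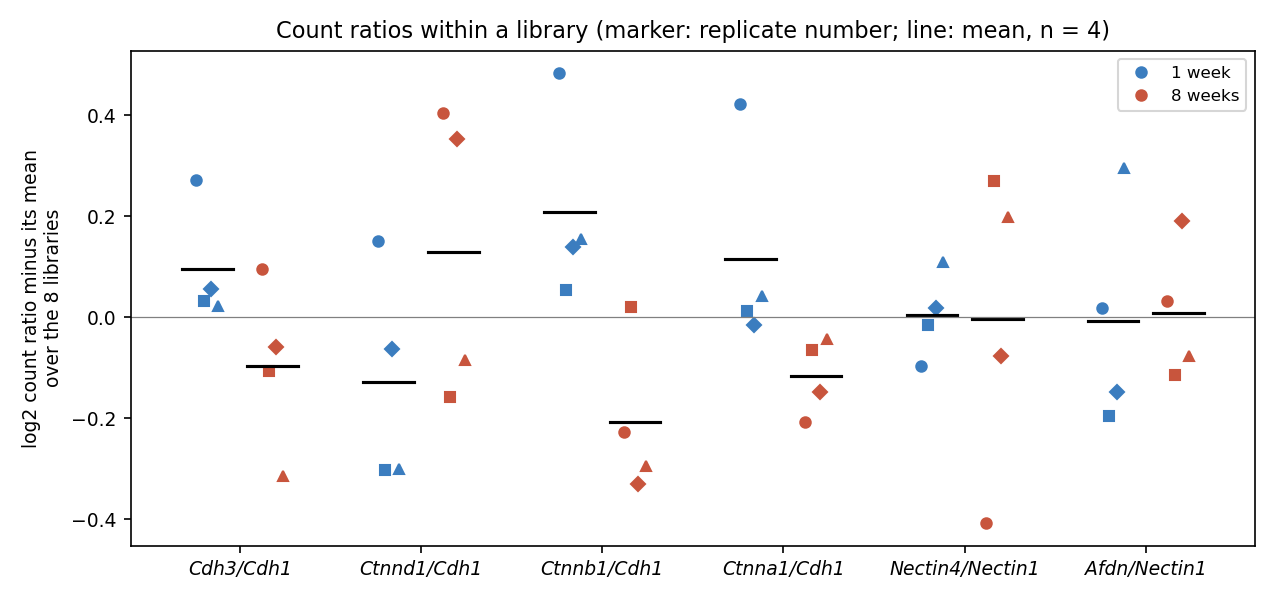
The 6 ratios of counts within each library, as log2 minus the mean over the 8 libraries on the vertical axis, with 1 point per library and a line at the group mean. Ctnnb1 over Cdh1 and Ctnna1 over Cdh1 are the 2 ratios whose 8 week points all lie below the 1 week points.

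The genes around the members were described by 8 lists of 103 genes. Their counts are read against the 3.33% of genes called higher and 3.22% called lower in the same fit. Magi1, Plekha7, Ptpn14 and Sipa1l3 below belong to the longest class of transcripts, in which 12.3% of genes were called higher. The 19 tested actin linkers and junction scaffolds had a median log2 fold change of 0.15. After correction it was 0.01, against 0.02 over all genes. Of these 19 genes 2 were higher and 0 lower. They were Magi1, a scaffold of cell junctions, at 30.2 and 46.0 CPM (log2 fold change 0.60, adjusted p = 0.00829), and Plekha7, which ties p120-catenin to the zonula adherens, at 53.3 and 78.0 CPM (0.55, adjusted p = 0.0460). Magi1 passed also after correction (0.37, adjusted p = 0.0444) and with each library left out, but not without 1 week 1 and 1 week 4 together (adjusted p = 0.0704) or 8 week 1 and 8 week 3 together (0.107). Plekha7 had 0.34 after correction (adjusted p = 0.153) and passed in 1 of the 8 fits with a library left out. Vcl, which encodes vinculin, stood at 217 ± 35.0 and 170.1 ± 11.3 CPM (SD, n = 4) and was called lower after correction (-0.47, adjusted p = 0.0497) but not before it (-0.35, adjusted p = 0.0836). Lima1, an actin-binding protein gene, stood at 236 and 213 CPM (adjusted p = 0.460).

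Of 15 genes of cadherin turnover and shedding 1 was higher, Ptpn14, a tyrosine phosphatase gene. It stood at 100.4, 127, 122 and 125 CPM at 1 week and at 210.0, 171, 199 and 175 CPM at 8 weeks, without overlap. The log2 fold change of Ptpn14 was 0.67 (SE 0.11, adjusted p = 0.00999), and 0.35 after correction (adjusted p = 0.0252), and it passed with each library left out, but not without 1 week 1 and 1 week 4 together (adjusted p = 0.0658) or 8 week 1 and 8 week 3 together (0.142). Of 11 tested genes of the Rap1 switch, which acts with afadin, 1 was higher, Sipa1l3, a Rap GTPase-activating protein gene, at 128 and 173 CPM (0.44, adjusted p = 0.0352). Rap1b, which encodes a Rap1 GTPase, stood at 155 and 125 CPM and was not called (-0.32, adjusted p = 0.0750). Sipa1l3 had 0.16 after correction (adjusted p = 0.331) and passed in 2 of the 8 fits with a library left out.

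Of 15 genes of beta-catenin turnover and its transcription partners 1 was higher and 2 were lower. Axin2, a Wnt target and inhibitor, and Tcf7, a transcription factor gene of the pathway, were lower at 8 weeks, at 38.6 and 25.1 CPM and at 43.9 and 26.3 CPM, and Tcf7l2 was higher, at 39.2 and 55.5 CPM. Log2 fold changes were -0.62, -0.74 and 0.50 (adjusted p = 0.0128, 0.0491 and 0.0464), and after correction Axin2 alone passed (adjusted p = 0.0100, with 0.0818 for Tcf7 and 0.0564 for Tcf7l2). With a library left out Axin2 failed in 1 of 8 fits (0.0520 without 8 week 3), Tcf7 in 5 and Tcf7l2 in 6, and the groups of Tcf7 overlapped. Axin2 failed also without either pair of libraries (adjusted p = 0.0904 without 1 week 1 and 1 week 4, 0.141 without 8 week 1 and 8 week 3). Bcl9l, which encodes a beta-catenin cofactor, stood at 109.9 and 137 CPM and was not called (0.32, adjusted p = 0.0751).

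Of 15 tested genes in the list of transcription factors for cadherin genes, which also holds the splicing factor genes Esrp1 and Esrp2, 1 was higher. It was Grhl2, a Grainyhead-like factor that keeps epithelial cadherin expression, at 149 and 196 CPM (0.40, adjusted p = 0.0466). After correction Grhl2 had 0.29 (adjusted p = 0.0888). Grhl2 passed in 2 of the 8 fits with a library left out (highest adjusted p = 0.141) and failed with no filter (0.0604). Esrp1, a splicing factor gene of epithelium, stood at 370.2 and 388 CPM and was not called (adjusted p = 0.673). Klf5, a Krüppel-like factor gene of epithelium, was called by edgeR after correction (0.35, adjusted p = 0.0448) and not before it (0.30, adjusted p = 0.0784). In the authors' deposited table, from DESeq2 without this correction, Klf5 had 0.31 with an adjusted p of 0.00396. There 3.33% of genes were called higher. Of the 3 tested other cadherins Cdh11, known from mesenchymal cells, was lower, at 3.96 and 1.52 CPM (-1.39, adjusted p = 0.0494; after correction adjusted p = 0.0652). Cdh11 passed in 1 of the 8 fits with a library left out (highest adjusted p = 0.148, without 8 week 1) and failed with library size alone (0.0640) and with no filter (0.0677). Summed fibroblast markers, with nearly all of the sum from Dcn, were also lower at 8 weeks, as given above. Their part in the level of Cdh11 was not tested. The collagen gene Col1a1, a defining marker of fibroblasts, stood at 0.421 and 0.496 CPM. Of 4 tested other nectins and nectin-like genes and of 6 tested other catenins edgeR called 0, with 1 and 3 at an unadjusted p under 0.05 (27.8% of all genes), and the Wald test of DESeq2 called 1 in each. Among them Cadm1, a nectin-like adhesion gene, stood at 26.6 ± 4.28 and 36.8 ± 4.39 CPM (SD, n = 4; log2 fold change 0.47, adjusted p = 0.0513). In the authors' deposited table the adjusted p of Cadm1 was 0.0285 (DESeq2). Nectin2 stood at 14.3 and 15.9 CPM and Ctnnal1, an alpha-catenin-like gene, at 61.8 and 68.7 CPM (adjusted p = 0.582 and 0.498). Medians of these groups were -0.10 and -0.07.

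The genes whose profile over the 8 libraries was most like the mean profile of the members were chosen by the smallest root mean square difference in centred log2(CPM + 1) among 10009 candidates with a mean of at least 5 CPM. These were Ipo9, Suz12, Ercc5, Fgfr1op and Ptpn23, with differences of 0.027, 0.030, 0.036, 0.041 and 0.041, against a median of 0.21 over the candidates. All 5 stood within a log2 fold change of 0.15 to 0.21, and none was called by edgeR (adjusted p = 0.125 to 0.316). Small differences and fold changes near the members' mean follow from this choice by profile.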

How the data were processed

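Per the submitters' processing notes, the tools were TopHat2 2.1.1, HTSeq 0.6.0, cutadapt 2.10, bcl2fastq 2.20.0.422 and DESeq2 1.26.0, and the build GRCm38. The authors deposited raw read counts per gene and library, their normalized signal, and from DESeq2 a log2 fold change, a Wald score and a p-value per gene. Columns were matched to samples by the library names in the labels, with 0 per-sample columns left unmatched.

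Tests on the counts used edgeR 4.0.16 under R 4.3.3 (filterByExpr with a minimum count of 10 and total of 15, TMM, two-sided quasi-likelihood test, Benjamini-Hochberg over 14533 genes, called at an adjusted p under 0.05). The correction used as offset, per library, splines over transcript length and over GC content, each of 4 degrees of freedom. GENCODE M21 matched 23312 genes (99.8%). DESeq2 1.42.0 and limma 3.58.1 served as alternatives.

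Ratios used a pseudocount of 0.5. The labels state 4 animals per group. The p-values measure the spread between libraries, in which animal, sort and library preparation cannot be told apart. Counts of the members ran from 229 (Ctnnd1) to 13507 (Ctnnb1) per library, which sets their counting error. The members and gene lists were chosen with earlier results of these data known. The rule for names took the members, the called and the 3 most abundant genes of each list, and the 5 genes most like the members. Vcl, the Col1a1 marker and Ctnnd1's neighbour Tmx2 were chosen after their values were seen.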

Additional observations from a re-analysis of the deposited data

Results flagged for a closer look

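A library stood far from the other 3 of its group in 7 of 88 groups of values examined, with a gap to the nearest of the others above 0.829 of the group's range. Chance flags about 1 in 20 such groups. Among the ratios, log2 Cdh3 over Cdh1 was -1.57 in 1 week 1, against -1.82 to -1.79 in the other 1 week libraries, and log2 Ctnna1 over Cdh1 was 0.79 in the same library, against 0.35 to 0.41. Pvr, a nectin-like receptor gene, stood at 2.17 CPM in 8 week 2, against 3.68 to 3.98 CPM. Ptprf, a receptor phosphatase gene, stood at 1145 CPM in 8 week 1, against 918 to 926 CPM. Ptpn1, a phosphatase gene, stood at 74.9 CPM in 1 week 3, against 95.1 to 97.8 CPM. Klf5 stood at 816 CPM in 1 week 3, against 717 to 730.3 CPM, and at 898 CPM in 8 week 4, against 926 to 932 CPM.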

How the results depend on the processing

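The count of genes called (484 higher, 468 lower, 1 member) depended on the setting. Called lower were 255 with library size alone, which moved the median of all genes by 0.096, and 265 with no filter. The Wald test of DESeq2 called 987 higher, 1082 lower and 2 members, and limma-voom 772 and 868. The length and GC correction gave 175, 210 and 0 members. The same numbers in the titles did not pair the samples (correlations of -0.34 to -0.03, no library closest to its own number): the replicate block gave 78, 83 and 0 with the numbers of the titles, 26, 66 and 0 by library name, and 61, 72 and 0 with the titles' block and the correction together. Without 1 week 1 and 1 week 4 the counts were 31, 29 and 0, and without 8 week 1 and 8 week 3, chosen after the data were seen as was the block with correction, 4, 8 and 0. With each library left out in turn they ran from 48 (without 8 week 3) to 843 (without 8 week 2) higher, 43 to 1048 lower and 0 to 1 members. Signs changed only in genes not called. With the correction they were -0.00097 for Cdh3, -0.067 for Cdh4, -0.054 for Actn4, -0.058 for Rapgef1, -0.030 for Trp63 and -0.0095 for Apc, and 0.16 and -0.0084 for the ratios Nectin4 over Nectin1 and Afdn over Nectin1. With the block added they were -0.0045, -0.073, -0.051, -0.050, -0.032 and -0.010 for the same genes. Library size alone gave 0.079 for Cdh13, 0.033 for Jup, 0.020 for Pkp4, 0.066 for Ptpn1 and 0.046 for Csnk1a1. Without a filter Cdh13 was at 0.0043, with at least 5 CPM in 4 libraries at 0.0036, and under the library name block at 0.15, where Actn4 was -0.0041. Without 1 week 1 and 1 week 4, Rapgef1 was -0.033, Ptpn1 0.057 and Csnk1a1 0.0031. Without 8 week 1 and 8 week 3, Cdh3 was -0.023, Cdh13 0.13, Jup 0.026 and Lmo7 0.046. With a library left out, Ctnna1 ran from -0.013 to 0.082, Cdh13 from -0.092 to 0.092 and Actn4 from -0.034 to 0.055. The cause of these changes was not tested. Leave-one-out log2 differences of the ratios ran from -0.05 to 0.12 for Afdn over Nectin1 and from -0.10 to 0.13 for Nectin4 over Nectin1. Over Cdh1 they ran from -0.26 to -0.12 for Cdh3, -0.28 to -0.13 for Ctnna1, -0.49 to -0.32 for Ctnnb1 and 0.17 to 0.35 for Ctnnd1. Among the members Ctnnd1 had the fewest counts, 229 to 706 per library.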
